A study of Homo sapiens with 6 samples.

Results

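The long intergenic RNAs with a LINC number in their name were followed in A549 cells, an established human non-small cell lung cancer line, after treatment with B35, which the series describes as an inhibitor of the histone demethylase LSD1. A gene was taken where GENCODE 29 gives it the biotype lincRNA, its symbol is LINC followed by digits only, and its counts summed to 60 or more over the 6 libraries. Of 58735 genes in the files, 1710 are lincRNA genes with such a symbol, 533 of them had at least 1 count, and 131 reached the sum of 60. The other 402 with a count fell below it. The sum was taken over both groups, so the counts that chose the members are the counts described here, and a gene expressed in 1 group can reach 60 through that group alone.

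The B35 group holds 3 libraries from A549 cells given 2 µM B35 for 72 h, and the control group holds 3 libraries from A549 cells left untreated for 72 h. Both groups carry the genotype given as WT and grew in DMEM with fetal bovine serum and antibiotics. The study rests on 1 line, 1 dose and 1 time, and no vehicle is named for the untreated cells. The labels do not tell whether replicates were cultured apart, so the p-values measure the spread between these libraries, which may be technical. In such bulk samples, fewer cells of a type and less RNA per cell cannot be told apart.

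A long intergenic RNA is transcribed from between protein-coding genes, is usually capped, spliced and polyadenylated like a messenger RNA, and encodes no long protein. Such RNAs are as a class less abundant and more cell-type restricted than messenger RNAs, and many start near an enhancer or opposite the start of a coding gene. LSD1, encoded by KDM1A, removes methyl groups from lysines of histone H3 at enhancers and promoters. The LINC number itself is a placeholder that the naming committee gives to a gene with no established function, so most members carry no role that could be stated.

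Library totals ran from 17209863 to 18530670 counts in B35 cells and from 17141478 to 18398450 in control cells. KDM1A had 184 ± 8.97 CPM (counts scaled by library total, with edgeR's TMM factors) in B35 cells and 198 ± 2.56 CPM in control cells (SD, n = 3 each; adjusted p = 0.432 in edgeR's quasi-likelihood test). Of the epithelial markers, KRT7 was at 861 to 964 CPM in B35 cells and 885 to 898 CPM in control cells, KRT8 fell to 939 to 1241 CPM in B35 cells, against 1624 to 1693 CPM in control cells, and EPCAM rose to 7.01 to 7.40 CPM in B35 cells, against 3.09 to 3.60 CPM in control cells, while CDH1 and KRT19 were at 1.55 CPM or below in every library. Of the 4 listed genes known to be high in A549 through active NRF2, NQO1 was at 230 to 267 CPM in B35 cells and 283 to 300 CPM in control cells, AKR1C1 rose to 30.6 to 33.2 CPM in B35 cells, against 10.96 to 15.4 CPM in control cells, and AKR1B10 and AKR1C2 were at 1.45 CPM or below. AKR1B10 and AKR1C2 were thus low where the description of A549 has them high, and AKR1C1 stood far below NQO1 in both groups. Of the epithelial markers, EPCAM, CDH1 and KRT19 stood far below KRT7 and KRT8. The name A549 is taken from the labels, and the reason for these low levels was not tested. What part the changes of KRT8, EPCAM and AKR1C1 have in the results below was not tested either. The summed leukocyte markers were 1.21 to 1.53 CPM in B35 cells and 1.25 to 1.55 CPM in control cells, with CD3E at 0 in all 6 libraries. Across all genes tested, the second principal component (22.8% of the variance) set B35 replicate 1, at 27.6, apart from B35 replicates 2 and 3, at -10.98 and -18.5. Across the members, the leading component (57.1%) separated the B35 libraries from the control libraries.

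The members were low-abundance RNAs. Their median level over the 6 libraries was 0.957 FPKM (fragments scaled by exon length and library total), against 1.18 FPKM for the 428 other lincRNAs and 6.28 FPKM for the 12361 protein-coding genes that reached the same summed count. Their median merged exon length was 2450 bases in 4 exon blocks, against 5146 bases in 11 blocks for those coding genes. Summed counts ran from 62 to 9425 with a median of 208, and the 14 most abundant members together held at least as many counts as all the others. Exons of 41 members overlap exons of another gene, 33 of them on the opposite strand. The strand setting of the counting step is unknown from the labels and notes, so reads of such pairs may not be told apart.

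LINC00958, which lies on chromosome 11 from 12961842 to 12989548 on the minus strand (hg38) and has been studied as a growth-promoting RNA in several carcinomas, was the most abundant member on either scale. It had 106.1, 94.2 and 87.3 CPM in the 3 B35 libraries, against 76.6, 80.2 and 81.6 CPM in the 3 control libraries. All B35 libraries were above all control libraries, and the level per length was 32.9 ± 3.33 FPKM in B35 cells and 27.6 ± 0.951 FPKM in control cells. The difference did not pass the test, with a log2 fold change of 0.27 ± 0.10 (SE) and an adjusted p of 0.0879 (edgeR). This 1 gene held 14.5% of all member counts.

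Below it by FPKM came LINC01836, LINC02351, LINC01843, LINC00857 and LINC00294, and by CPM the 6 highest also included LINC00667 and LINC00707. LINC02351, whose merged exons are short, had 14.6 ± 1.65 FPKM in B35 cells and 12.4 ± 0.186 FPKM in control cells, and LINC01843 had 10.7 ± 2.57 FPKM in B35 cells and 8.47 ± 0.446 FPKM in control cells (SD, n = 3 each). For both, the B35 libraries were above the control libraries and the test was not passed (adjusted p = 0.417 and 0.206, edgeR). LINC00857, studied in lung cancer as a proliferation-associated RNA, had 14.8, 14.7 and 13.9 CPM in B35 cells, against 20.2, 18.5 and 16.5 CPM in control cells, or 6.56 ± 0.273 FPKM in B35 cells and 8.43 ± 0.835 FPKM in control cells. Its B35 libraries were all below its control libraries, with an adjusted p of 0.0822 (edgeR). LINC00294 had 7.06 ± 0.185 FPKM in B35 cells and 6.80 ± 1.15 FPKM in control cells (adjusted p = 0.763), and its exons overlap those of CSTF3 and PIGCP1. LINC00667 had 40.3 ± 2.64 CPM in B35 cells and 44.3 ± 1.48 CPM in control cells (adjusted p = 0.370), and LINC00707 had 33.6 ± 4.93 CPM in B35 cells and 29.1 ± 2.11 CPM in control cells (adjusted p = 0.311). Both have libraries that overlap between the groups, and both share exon sequence with other annotated RNAs. Of the 8 most abundant members by either scale, LINC01836 alone passed the test, and it fell.

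Among the 128 members that could be tested, 20 rose and 3 fell with B35 at an adjusted p under 0.05 in edgeR's quasi-likelihood test, adjusted over all 14773 genes tested. Members that passed were therefore 18.0% of those tested, where 15.4% of all genes tested passed. By direction, 15.6% of the members rose, where 8.82% of all genes rose, and 2.34% fell, where 6.59% of all genes fell. Of the 20, 13 rose by at least 2-fold, and 0 of the 3 fell by that much, where 2.67% of all genes passed with a 2-fold rise and 0.399% with a 2-fold fall. The median log2 fold change of the tested members was 0.12, from -0.98 to 2.78, and that of all genes tested was 0.01.

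For each of the 23 that passed, the groups did not overlap, which largely follows from passing the test and adds no support. Over all 128 tested members, the B35 libraries were all above the control libraries for 34 and all below them for 14, or 26.6% and 10.9%, where the shares over all genes tested were 18.8% and 17.5%. Among the 415 tested lincRNAs without a LINC number, 28 rose and 11 fell, or 6.75% and 2.65%, with a median log2 fold change of 0.08. Among the 12334 tested protein-coding genes, 1160 rose and 925 fell, or 9.41% and 7.50%, with a median of 0.00. The members' share of rises stood above that of both classes and their share of falls below that of coding genes, a comparison of counts with no test of the difference. The way members entered bears on these counts. Of the 20 that rose, 6 had under 30 counts over the 3 control libraries, and none of the 3 that fell had under 30 counts over the 3 B35 libraries. The other 14 that rose had at least 30 counts in each group, among 115 tested members with as many.

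**Figure D1:**
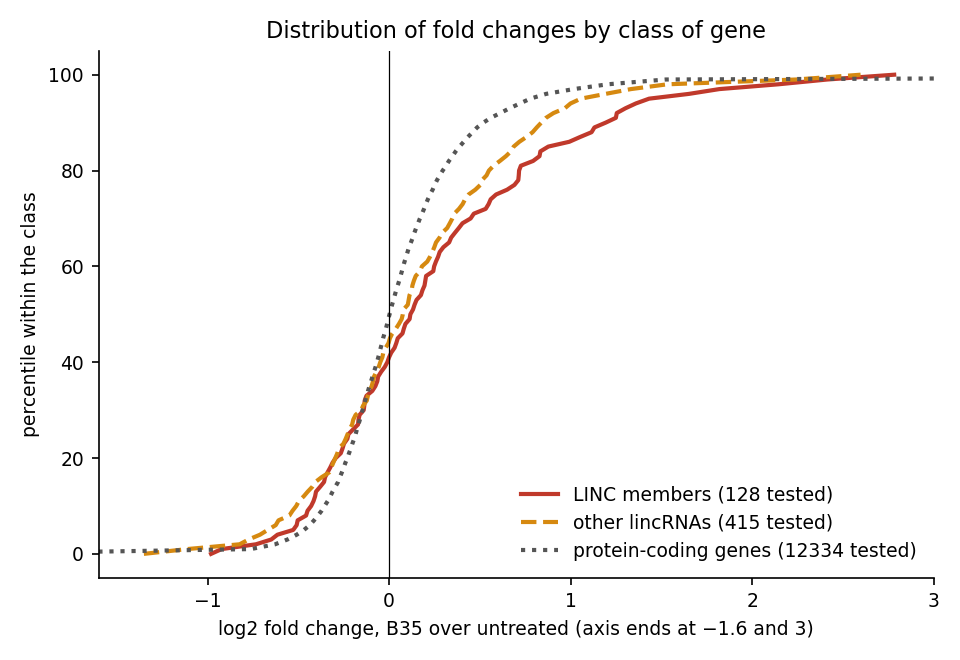
Cumulative distribution of the log2 fold change (horizontal axis, B35 over untreated control) for the 128 tested LINC-named RNAs, 415 other lincRNAs and 12334 protein-coding genes, with the percentile within each class on the vertical axis. The curve of the LINC-named RNAs lies to the right of the coding genes over its upper part and to the left over much of its lower part. Their medians are 0.12 and 0.00, their 10th percentiles -0.43 and -0.36, and their 90th percentiles 1.19 and 0.52.

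LINC00520 rose the most. This gene, also known as LEENE from endothelial cells, where it was described as favouring nitric oxide synthase expression, lies on chromosome 14 from 55781132 to 55796731 on the minus strand. It had 4.52, 4.33 and 3.43 CPM in the B35 libraries, against 0.334, 0.609 and 0.833 CPM in the control libraries. The lowest B35 library was well above the highest control library. The means were 4.09 ± 0.585 CPM in B35 cells and 0.592 ± 0.250 CPM in control cells (SD, n = 3 each), a 6.88-fold difference with a log2 fold change of 2.78 ± 0.32 (SE) and an adjusted p of 0.000589 (edgeR). Apart from CDH5 and COL1A1, every listed marker of endothelial cells, fibroblasts and leukocytes was at 2.71 CPM or below in each library. CDH5 was at 6.75 to 8.66 CPM in B35 cells and 4.85 to 7.26 CPM in control cells and did not pass (adjusted p = 0.268), and COL1A1 was at 18.9 to 20.9 CPM in B35 cells and 24.1 to 25.5 CPM in control cells (adjusted p = 0.0596). Their part in the rise of LINC00520 was not tested.

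LINC02081 had the smallest adjusted p of the members. It lies on chromosome 17 from 78605233 to 78632155 on the minus strand, in 11 exon blocks. It had 14.7, 15.04 and 17.4 CPM in the B35 libraries, against 6.58, 6.31 and 6.25 CPM in the control libraries. The control libraries lay close together, with means of 15.7 ± 1.47 CPM in B35 cells and 6.38 ± 0.177 CPM in control cells. The rise was 2.46-fold, with a log2 fold change of 1.30 ± 0.14 and an adjusted p of 0.000326 (edgeR). LINC00494, on chromosome 20 from 48359950 to 48370629 on the plus strand, had 6.22, 6.16 and 5.38 CPM in the B35 libraries, against 1.95, 1.88 and 1.73 CPM in the control libraries. Again each group was tight and the groups stood far apart, and the rise was 3.18-fold, with a log2 fold change of 1.67 ± 0.20 and an adjusted p of 0.000643.

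A further 3 members passed with every library left out in turn. LINC01588, on chromosome 14 from 49927571 to 50092643 on the minus strand, has 28 exon blocks and shares exon sequence with AL117692.1. It had 8.03, 6.33 and 7.49 CPM in the B35 libraries, against 3.74, 3.21 and 2.74 CPM in the control libraries, a 2.25-fold rise (adjusted p = 0.00338, edgeR). LINC00337 is the transcript that runs opposite to ICMT, a carboxyl methyltransferase that modifies prenylated proteins, and its exons overlap those of ICMT, with the strand caveat given above. It had 7.97, 9.10 and 7.43 CPM in the B35 libraries, against 3.79, 4.49 and 4.04 CPM in the control libraries, a 1.99-fold rise (adjusted p = 0.00410). ICMT itself had a log2 fold change of -0.26 with an adjusted p of 0.0748, so the log2 fold changes of the pair had opposite signs, and that of the coding gene did not pass. LINC02009, 3527 bases from the chemokine-receptor-like gene CCRL2 on chromosome 3, had 3.28, 3.11 and 2.69 CPM in the B35 libraries, against 1.34, 1.11 and 1.37 CPM in the control libraries, a 2.37-fold rise (adjusted p = 0.00835). CCRL2 did not pass, at a log2 fold change of 0.11 and an adjusted p of 0.801.

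The remaining large rises were of scarce RNAs. LINC01411, on chromosome 5 from 174336295 to 174532457 on the plus strand, had 15, 13 and 27 counts in the B35 libraries, against 3, 6 and 0 counts in the control libraries. These few reads gave 0.848, 0.722 and 1.42 CPM in B35 cells, against 0.167, 0.332 and 0 CPM in control cells, and a log2 fold change of 2.51 ± 0.65 (adjusted p = 0.0256, edgeR), which was 3.43 without control replicate 2 and 1.97 without control replicate 3. LINC01348, on chromosome 1 from 235065479 to 235074220 on the minus strand, had 2.54, 0.888 and 2.16 CPM in the B35 libraries, against 0.446, 0.609 and 0.178 CPM in the control libraries. B35 replicate 2 lay close to the control range, and the log2 fold change was 2.15 ± 0.50 (adjusted p = 0.0166). LINC01132, on the same chromosome from 234724042 to 234736720 on the plus strand, had 0.848, 1.06 and 1.00 CPM in the B35 libraries, against 0.390, 0.111 and 0.357 CPM in the control libraries. The B35 libraries agreed closely, and the log2 fold change was 1.74 ± 0.46 (adjusted p = 0.0283). All 3 calls were lost when a single library was left out: LINC01411 and LINC01348 without B35 replicate 3, control replicate 1 or control replicate 3, with an adjusted p of up to 0.0939 and 0.0751, and LINC01132 without any library but B35 replicate 1, with up to 0.106.

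The promoter windows of these 3 are shown because they are the largest rises with an entry in the RefSeq promoter table. Each holds 250 bases before and 50 after the RefSeq start on GRCh38.p14, read 5′ to 3′ on the strand of the gene. The windows are chr5:174336104-174336403 on the plus strand for LINC01411, chr1:235069769-235070068 on the minus strand for LINC01348 and chr1:234723792-234724091 on the plus strand for LINC01132. The RefSeq start lies 59 bases from the GENCODE start for LINC01411, 4402 bases for LINC01348 and 0 for LINC01132, so the LINC01348 window belongs to a shorter model. Capitals mark matches on either strand to ACGTG (the core of the hypoxia response element), TGANTCA (the AP-1 site), a tandem interferon response motif, CCAAT or TATAA.
LINC01411: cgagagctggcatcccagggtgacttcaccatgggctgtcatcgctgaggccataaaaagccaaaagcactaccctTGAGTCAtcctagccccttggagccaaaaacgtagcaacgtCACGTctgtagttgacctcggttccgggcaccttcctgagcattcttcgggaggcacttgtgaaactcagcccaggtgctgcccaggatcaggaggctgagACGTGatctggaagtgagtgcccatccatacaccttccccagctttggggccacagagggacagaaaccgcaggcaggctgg
LINC01348: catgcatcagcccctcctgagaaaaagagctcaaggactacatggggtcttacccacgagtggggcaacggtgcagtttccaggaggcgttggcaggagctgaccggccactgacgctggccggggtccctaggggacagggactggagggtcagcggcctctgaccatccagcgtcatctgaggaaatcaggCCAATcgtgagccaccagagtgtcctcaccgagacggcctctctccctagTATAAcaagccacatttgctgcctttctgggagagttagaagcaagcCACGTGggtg
LINC01132: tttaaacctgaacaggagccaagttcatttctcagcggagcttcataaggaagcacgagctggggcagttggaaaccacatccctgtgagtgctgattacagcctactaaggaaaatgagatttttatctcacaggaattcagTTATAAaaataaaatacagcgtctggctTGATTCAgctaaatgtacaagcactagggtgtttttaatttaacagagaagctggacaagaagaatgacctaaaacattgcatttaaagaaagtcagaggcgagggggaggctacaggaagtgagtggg
Counted from the first base of each window, LINC01411 holds ACGTG matches at 118 to 122 and 219 to 223 and an AP-1 match at 77 to 83. LINC01348 holds 2 overlapping ACGTG matches, on opposite strands, at 291 to 295 and 292 to 296, with CCAAT at 194 to 198 and TATAA at 244 to 248. LINC01132 holds an AP-1 match at 172 to 178 and 2 overlapping TATAA matches at 144 to 148 and 145 to 149. The AP-1 letters thus stand in LINC01411 and LINC01132 but not in LINC01348.

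A further 4 members completed the 10 largest rises with LINC00520, LINC02081, LINC00494 and the 3 just shown. LINC01559, on chromosome 12 from 13371089 to 13387167 on the minus strand, had 1.19, 0.666 and 1.21 CPM in the B35 libraries, against 0.446, 0.166 and 0.0595 CPM in the control libraries (log2 fold change 2.14 ± 0.56, adjusted p = 0.0277, edgeR), and its log2 fold change was 3.08 without control replicate 1. LINC01443, on chromosome 18 from 14946267 to 14974215 on the plus strand, had 2.88, 2.22 and 1.27 CPM in the B35 libraries, against 0.613, 0.941 and 0.773 CPM in the control libraries (1.44 ± 0.37, adjusted p = 0.0266). Both had a wide spread in the B35 group relative to the gap. LINC00886, on chromosome 3 from 156747346 to 156817062 on the minus strand, had 1.02, 1.11 and 1.69 CPM in the B35 libraries, against 0.446, 0.609 and 0.357 CPM in the control libraries (1.42 ± 0.39, adjusted p = 0.0324). LINC00319, on chromosome 21 from 43446601 to 43453893 on the plus strand, had 0.791, 1.06 and 1.16 CPM in the B35 libraries, against 0.446, 0.443 and 0.297 CPM in the control libraries (1.32 ± 0.39, adjusted p = 0.0425). Each of the 4 lost its call when any of at least 3 single libraries was left out, with adjusted p-values of up to 0.113 for LINC01559, 0.104 for LINC01443, 0.141 for LINC00886 and 0.180 for LINC00319. In DESeq2, LINC00886 and LINC00319 did not pass, and LINC00319 also failed with no filter on low counts and with the replicate number as a block.

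**Figure D2:**
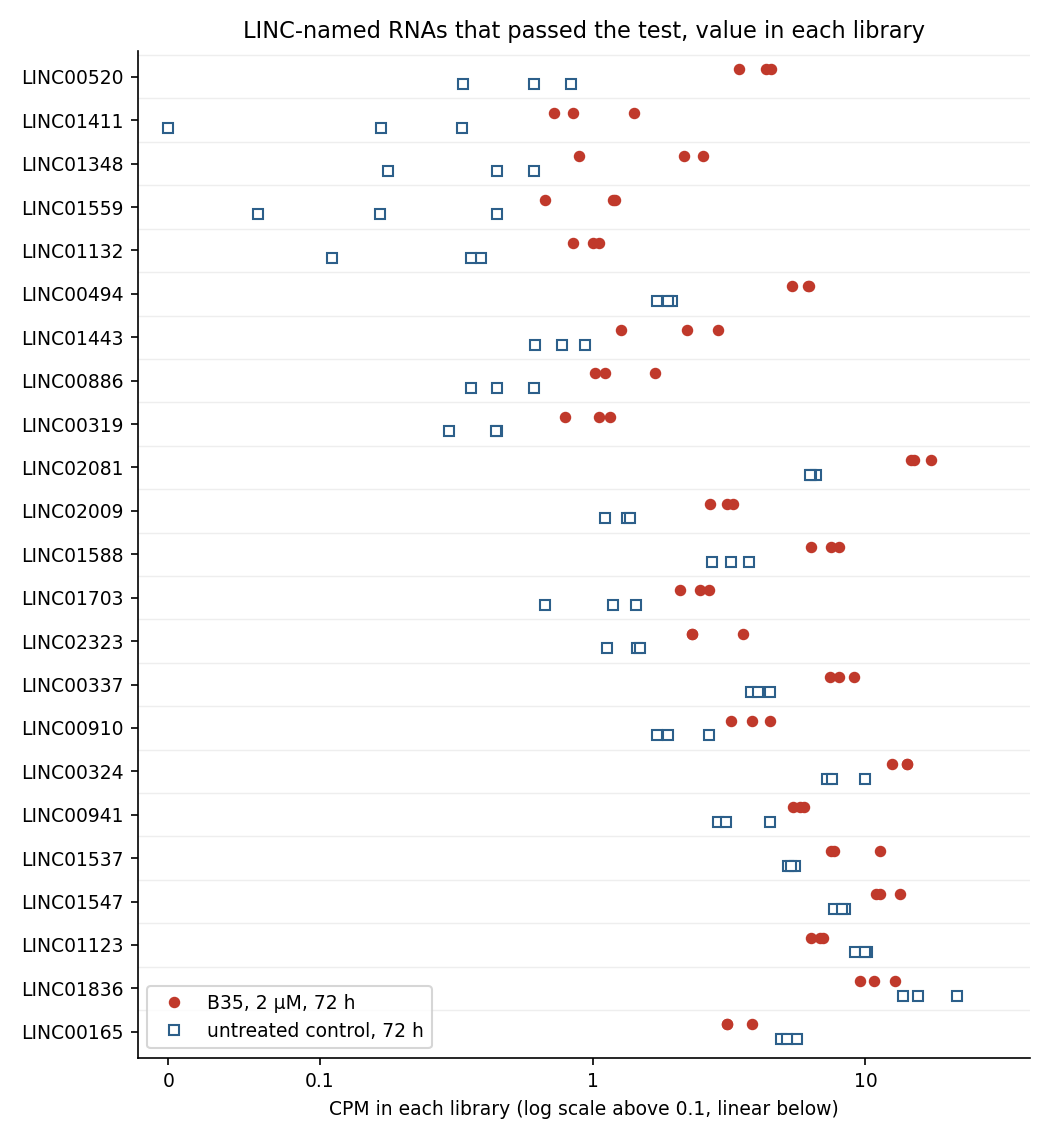
CPM of the 23 LINC-named RNAs that passed the test, with each B35 library as a filled circle and each untreated control library as an open square, ordered by log2 fold change (log scale above 0.1, linear below). The B35 libraries lie to the right of the control libraries for 20 RNAs and to the left for LINC01123, LINC01836 and LINC00165.

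The other 7 that rose did so by smaller folds than the 10 largest rises. LINC00324, LINC00941, LINC01537 and LINC01547 were among the better expressed, and their rises were 1.66-fold, 1.64-fold, 1.64-fold and 1.47-fold. For LINC01547, on chromosome 21, the libraries had 10.9, 13.4 and 11.3 CPM in B35 cells, against 7.64, 8.42 and 8.21 CPM in control cells, and for LINC01537 they had 11.3, 7.49 and 7.64 CPM in B35 cells, against 5.52, 5.21 and 5.35 CPM in control cells. For LINC01537, B35 replicate 1 thus stood well above the other B35 libraries, which were still above the control libraries. Its call was lost without B35 replicate 1 and also without any 1 of the control libraries. LINC01703, LINC02323 and LINC00910 rose 2.19-fold, 2.00-fold and 1.84-fold, with 2.41 ± 0.292, 2.73 ± 0.712 and 3.85 ± 0.631 CPM in B35 cells and 1.10 ± 0.393, 1.36 ± 0.199 and 2.10 ± 0.509 CPM in control cells (SD, n = 3 each). LINC00910 shares exon sequence with RNU2-4P, and a second annotated gene also named LINC00941, with no counts, overlaps the one described here. The adjusted p-values of these 7 ran from 0.0117 to 0.0414 (edgeR), and each of the 7 lost its call without control replicate 3.

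The 3 that fell were LINC01836, LINC01123 and LINC00165. LINC01836, on chromosome 19 from 782755 to 785080 on the plus strand, had 9.55, 10.7 and 12.8 CPM in the B35 libraries, against 13.7, 21.7 and 15.5 CPM in the control libraries. Control replicate 2 was far above the other control libraries, while the highest B35 library was just under the lowest control library. Per length, it had 12.5 ± 1.81 FPKM in B35 cells and 19.4 ± 4.77 FPKM in control cells, and its log2 fold change was -0.62 ± 0.19 (adjusted p = 0.0449, edgeR). LINC01123, on chromosome 2 from 109987063 to 109996140 on the plus strand, had 6.84, 6.33 and 6.96 CPM in the B35 libraries, against 10.1, 9.14 and 9.93 CPM in the control libraries. Both groups were tight, with a log2 fold change of -0.53 ± 0.14 (adjusted p = 0.0292), and its exons overlap those of the pseudogene ZBTB45P1. LINC00165, a gene of 1 exon block on chromosome 21 from 44994362 to 44995185 on the minus strand, had 3.11, 3.83 and 3.11 CPM in the B35 libraries, against 4.91, 5.59 and 5.17 CPM in the control libraries (-0.64 ± 0.19, adjusted p = 0.0433). None of the 3 calls held with every library left out in turn, where the adjusted p reached 0.167, 0.115 and 0.132. LINC01836 and LINC00165 also failed with upper-quartile scaling, and LINC01836 in limma-voom.

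Their promoter windows, taken and marked in the same way, are chr19:782546-782845 on the plus strand for LINC01836, chr2:109986730-109987029 on the plus strand for LINC01123 and chr21:44995153-44995452 on the minus strand for LINC00165. They are given beside the windows of the RNAs that rose so that both can be read.
LINC01836: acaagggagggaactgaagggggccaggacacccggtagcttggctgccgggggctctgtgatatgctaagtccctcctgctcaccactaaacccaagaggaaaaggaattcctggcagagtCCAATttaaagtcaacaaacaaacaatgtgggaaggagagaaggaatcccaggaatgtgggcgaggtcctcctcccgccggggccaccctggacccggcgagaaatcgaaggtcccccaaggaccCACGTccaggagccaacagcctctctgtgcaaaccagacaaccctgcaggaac
LINC01123: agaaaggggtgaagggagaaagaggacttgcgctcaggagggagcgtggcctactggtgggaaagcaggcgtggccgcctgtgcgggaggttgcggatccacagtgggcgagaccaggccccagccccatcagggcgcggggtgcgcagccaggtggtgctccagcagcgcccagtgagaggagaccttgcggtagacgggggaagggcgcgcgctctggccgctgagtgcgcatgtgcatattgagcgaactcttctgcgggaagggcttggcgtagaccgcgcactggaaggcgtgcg
LINC00165: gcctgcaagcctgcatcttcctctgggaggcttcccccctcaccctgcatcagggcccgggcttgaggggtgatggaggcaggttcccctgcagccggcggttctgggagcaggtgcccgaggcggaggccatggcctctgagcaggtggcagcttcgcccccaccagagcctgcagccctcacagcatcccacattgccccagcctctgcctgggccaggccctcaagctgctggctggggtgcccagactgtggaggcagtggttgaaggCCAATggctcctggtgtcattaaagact
LINC01836 holds an ACGTG match at 248 to 252 and CCAAT at 123 to 127, LINC00165 holds CCAAT at 273 to 277, and LINC01123 holds none of the 5 motifs. The LINC01123 window has 25 CpG dinucleotides, against 9 for LINC01836 and 6 for LINC00165. Those of LINC01411, LINC01348 and LINC01132 have 10, 12 and 4. Windows were found by symbol for 91 of the 131 members, among them 15 of the 20 that rose. LINC02081, LINC00520, LINC00337, LINC01559 and LINC00319 are named only. ACGTG was present in 9 of the 15 windows of RNAs that rose, in 28 of the 91 member windows and in 21.6% of all 27305 windows in the table. TGANTCA was present in 5 of the 15, in 10 of the 91 and in 7.76% of all windows. CCAAT was in 4 of the 15 and 35.7% of all windows, TATAA in 4 of the 15 and 21.1%, and the tandem interferon response motif in 0 of the 15 and 3.65%. A match describes the letters in a window and not a bound site.

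The changes that passed were larger among the scarcer members, whose wider SEs raise the change needed to pass. The tested members were put into 3 bins by mean CPM. In the lowest bin, from 0.578 to 1.37 CPM, 6 of 43 rose and 0 fell, with a median SE of 0.41 on the log2 scale, and the smallest log2 fold change that passed was 1.32. In the middle bin, up to 3.80 CPM, 6 of 43 rose and 0 fell, with a median SE of 0.28 and a smallest passing change of 0.88. In the highest bin, from 3.89 CPM, 8 of 42 rose and 3 fell, with a median SE of 0.18 and a smallest passing change of 0.53. Of all genes tested, at any level, 8.82% rose and 6.59% fell. No share of all genes was taken within a bin, so whether the pattern by level is particular to the members was not tested. Over all tested members of a bin, the median log2 fold change was 0.18, 0.11 and 0.09 from the lowest bin to the highest.

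**Figure D3:**
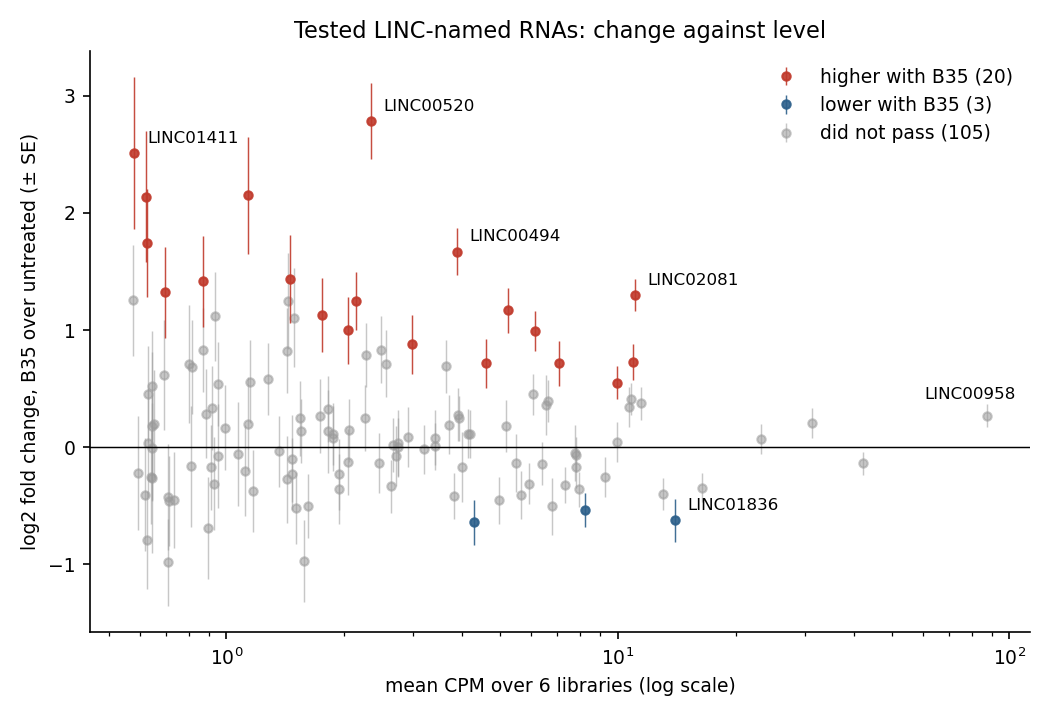
Log2 fold change (B35 over untreated control, bars are ± SE) against mean CPM over the 6 libraries on a log scale, for the 128 tested LINC-named RNAs, with red for the 20 that rose, blue for the 3 that fell and grey for the 105 that did not pass. The error bars shorten as the level rises, and the 3 that fell all lie above 3.89 CPM.

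Of the 105 tested members that did not pass, 14 had all B35 libraries above all control libraries and 11 had them all below, where 11.8% and 13.0% of all genes that did not pass had these patterns. At an unadjusted p under 0.05, 15 of the 105 were higher and 6 lower, where 9.22% and 8.83% of all genes that did not pass were. LINC01842 had the highest log2 fold change among them, 1.25 ± 0.47 (adjusted p = 0.0965, edgeR), and LINC01914 had the lowest, -0.98 ± 0.37 (adjusted p = 0.101). Another 3 members were not tested because too few libraries reached the minimum count. LINC00313 had 11, 2 and 7 counts in the B35 libraries, against 1, 38 and 8 in the control libraries, and LINC00957 and LINC01637 lay just above the summed count of 60. LINC01637 had 6, 7 and 18 counts in B35 cells, against 7, 16 and 8 in control cells, and LINC00957 had 9, 11 and 22 counts in B35 cells, against 8, 9 and 4 in control cells. LINC01842, with 14, 10 and 21 counts in B35 cells, against 7, 8 and 3 in control cells, was the next. Just below 60 lay LINC01772 with 15, 11 and 12 counts in B35 cells, against 9, 5 and 7 in control cells, LINC01176 with 13, 6 and 12 counts in B35 cells, against 8, 11 and 8 in control cells, and LINC02212 with 17, 8 and 11 counts in B35 cells, against 2, 9 and 9 in control cells. Genes on either side of the threshold thus held similar counts.

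Summed over the class, the members took a slightly larger share of the reads with B35. They held 0.0666%, 0.0633% and 0.0637% of all counts in the B35 libraries, against 0.0549%, 0.0571% and 0.0564% in the control libraries. The groups did not overlap, and they did not overlap without LINC00958 either, at 0.0539% to 0.0557% in B35 cells and 0.0474% to 0.0492% in control cells. Among the 402 LINC-named genes below the threshold, 220, 230 and 238 had at least 1 count in the B35 libraries, against 203, 200 and 204 in the control libraries. Over all genes in the files, 21926, 21464 and 22365 had a count in the B35 libraries, against 21249, 21554 and 21077 in the control libraries. The 402 LINC-named genes summed to 893, 886 and 969 counts in B35 cells, against 605, 691 and 572 in control cells. The groups thus stood apart among these scarcest LINC-named genes as well. These sums describe the libraries and were not tested, since the members were chosen on the same counts.

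Replicates agreed less over the members than over all genes. Across the 128 tested members, where genes are not independent replicates, the correlation of log2 CPM was 0.945 to 0.958 between B35 libraries, 0.958 to 0.968 between control libraries and 0.888 to 0.912 between the groups. Over all genes it was 0.985 to 0.992, 0.992 to 0.995 and 0.978 to 0.985. The median coefficient of variation of a member was 21.5% in B35 cells and 19.1% in control cells. The second component of the members (16.0%) put B35 replicate 1 and control replicate 1 on the same side, at 2.23 and 1.95, and the other 4 libraries at -1.99 to -0.51.

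**Figure D4:**
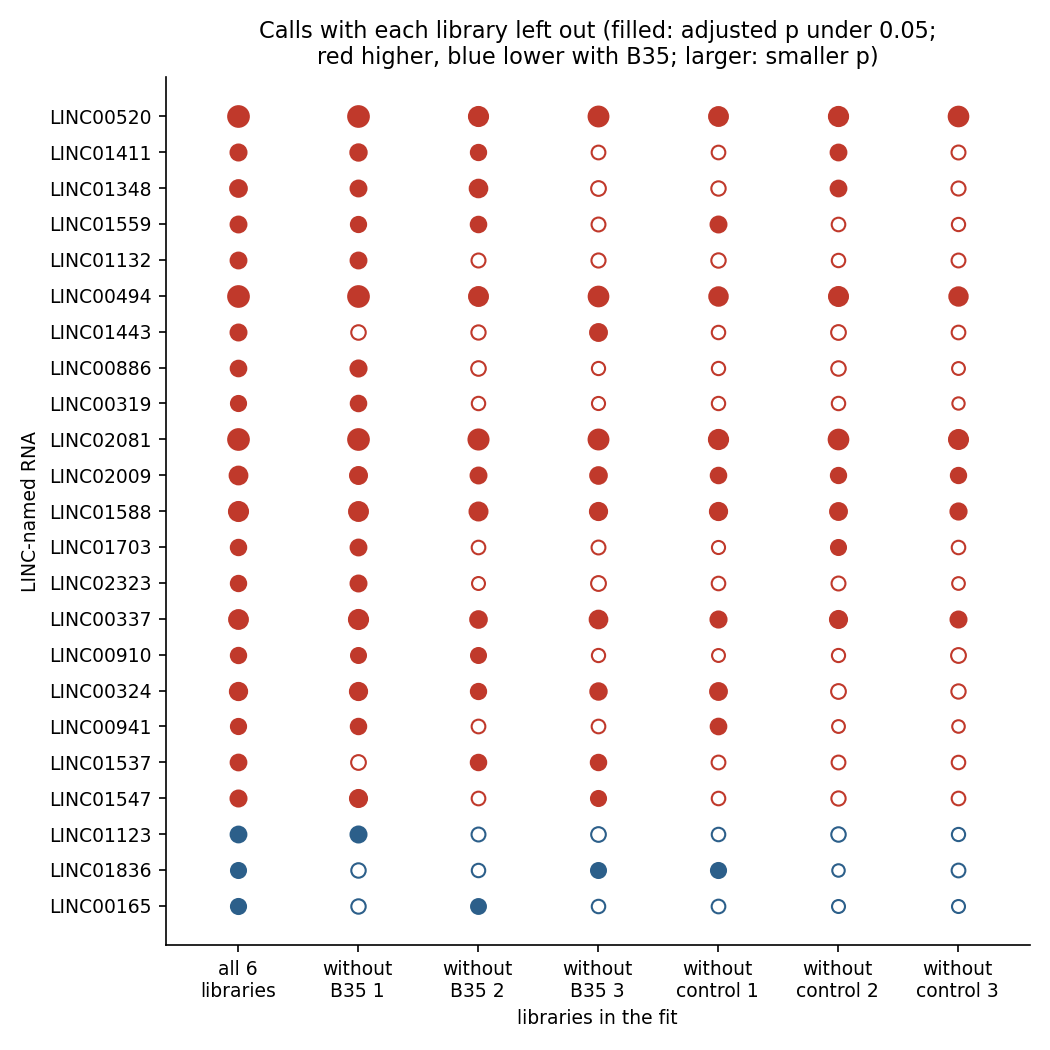
Calls of the 23 LINC-named RNAs (rows) in the fit with all 6 libraries and in the 6 fits that leave 1 library out (columns), where a filled circle marks an adjusted p under 0.05, red is higher and blue lower with B35, and a larger circle is a smaller p. LINC00520, LINC02081, LINC00494, LINC02009, LINC01588 and LINC00337 are filled in every column.

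The number of rises depended on single libraries, and so did the number over all genes. Without B35 replicate 1, 20 of 130 tested members rose and 3 fell (12.1% and 10.1% of all genes). Without B35 replicate 2, 13 of 130 rose and 1 fell (6.14% and 4.76% of all genes). Without B35 replicate 3, 11 of 129 rose and 1 fell (6.36% and 4.21% of all genes). Without control replicate 1, 9 of 131 rose and 1 fell (4.36% and 2.76% of all genes). Without control replicate 2, 10 of 129 rose and 0 fell (5.2% and 3.3% of all genes). Without control replicate 3, 6 of 131 rose and 0 fell (3.87% and 1.94% of all genes). Each of the last 5 fits thus called fewer genes throughout the table. In all 6 fits the members' share of rises stood above that of all genes, but by less than with every library kept. The gap was smallest without control replicate 3. Among the alternatives that keep all libraries, 19 of 128 members rose in DESeq2 (9.24% of all genes) and 15 of 93 with a mean CPM of 1 or more required (8.98%). With GC and length offsets 26 of 128 rose (13.1%), and with the replicate number as a block 21 of 128 (10.8%). Falls numbered 6 with those offsets (13.2% of all genes), 3 with the block (8.54%) and 1 with upper-quartile scaling (5.5%). LINC02081, LINC00520, LINC00494, LINC01588, LINC00337 and LINC02009 passed in all 6 fits, and also in all of the other alternatives run.

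Long intergenic RNAs are often described beside the coding gene next to them, so each member was paired with the coding gene whose body lies nearest, at a median distance of 15820 bases. Both genes could be tested for 100 members, which share 94 neighbours. For 19 of these the LINC RNA passed, and the neighbour also passed for 4 of the 19 (21.1%), in the same direction each time. Where the LINC RNA did not pass, the neighbour passed for 16 of 81 (19.8%), and of all tested coding genes 16.9% passed. These shares lay close together, but the first rests on 4 pairs, and a LINC RNA that did not pass may still have changed. The signs of the log2 fold changes were the same in 57 of the 100 pairs, and across the pairs Pearson's r was 0.15 and Spearman's rho 0.16, given as a description because neighbouring genes share libraries and some share a neighbour.

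In 3 of the 4 pairs both genes rose, and 2 of these are described here. LINC00324 and CTC1, a subunit of a telomere maintenance complex, lie 778 bases apart on chromosome 17. LINC00324 had 14.2, 14.2 and 12.5 CPM in B35 cells, against 9.92, 7.20 and 7.55 CPM in control cells, and CTC1 had a log2 fold change of 0.43 (adjusted p = 0.0322, edgeR). LINC00941 had 5.43, 5.77 and 5.96 CPM in B35 cells, against 4.46, 2.88 and 3.09 CPM in control cells, and CAPRIN2, an RNA-binding protein gene 40507 bases away, had a log2 fold change of 0.70 (adjusted p = 0.00444). In 1 pair both fell: LINC01836 lies 11995 bases from PTBP1, a splicing regulator, whose log2 fold change was -0.35 (adjusted p = 0.0250). The number of such pairs was 7 without B35 replicate 1 and 0 to 2 without any 1 of the other libraries. With the nearest start site in place of the nearest gene body, 4 pairs passed again, with LINC01559 and EMP1, an epithelial membrane protein (log2 fold change 0.65, adjusted p = 0.00514, at 190451 bases), in place of LINC00324 and CTC1.

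**Figure D5:**
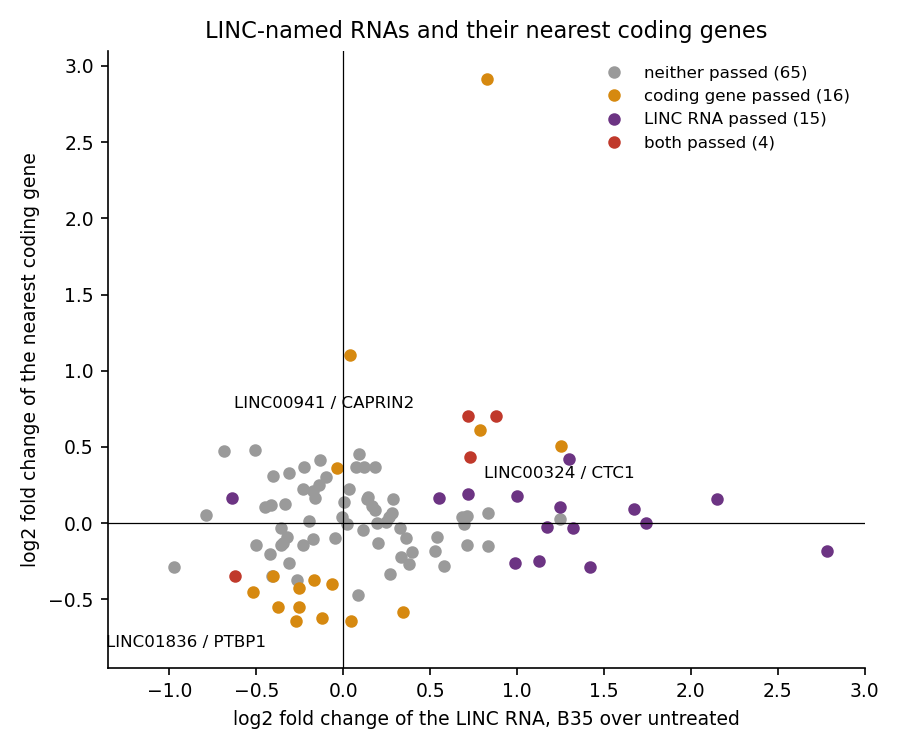
Log2 fold change of the nearest coding gene (vertical axis) against that of the LINC-named RNA (horizontal axis), both B35 over untreated control, for the 100 pairs in which both were tested, coloured by which gene passed. Of the 4 pairs in which both passed, 3 lie in the upper right, among them the labelled LINC00324 with CTC1 and LINC00941 with CAPRIN2, and LINC01836 with PTBP1 lies in the lower left, and points with 1 passing gene lie on both sides of 0.

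Of the 16 pairs in which the neighbour passed and the LINC RNA did not, the neighbour fell in 11 (9 different genes) and rose in 5. These are 16 of the 81 pairs with a LINC RNA that did not pass, where 7.50% of all tested coding genes fell and 9.41% rose. NFAM1, an immunoreceptor signalling gene next to LINC01315, had 1.18 ± 0.390 CPM in B35 cells and 0.148 ± 0.170 CPM in control cells, with a log2 fold change of 2.92 ± 0.65 (adjusted p = 0.0135, edgeR), while LINC01315 had a log2 fold change of 0.83 (adjusted p = 0.152). GALNT9, a glycosyltransferase gene next to LINC02361, and ADGRE5, an adhesion receptor gene next to LINC01842, rose by 0.61 and 0.51 on the log2 scale, beside 0.79 and 1.25 for their LINC RNAs, which did not pass. JADE2, a chromatin reader gene 15083 bases from LINC01843, fell by 0.58 while LINC01843 had a log2 fold change of 0.34. UQCRFS1, a subunit of respiratory complex III, fell by 0.35 beside -0.40 for LINC00662 (adjusted p = 0.0702), but lies 1411381 bases away.

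Counting only opposite-strand pairs that run apart from starts that do not overlap, 10 members start within 1000 bases of a coding gene's start, the arrangement of a divergent promoter. Their signs matched those of the coding partner in 6 of the 10, 1 member and 2 coding genes passed, and no pair had both. Over the whole table, 15.4% of all genes and 16.9% of the coding genes passed. The member was LINC01547, 97 bases from FAM207A, which did not pass (log2 fold change 0.17, adjusted p = 0.719). The coding genes were C1orf174, which fell by 0.45 on the log2 scale (adjusted p = 0.0170) beside -0.52 for LINC01134 at 79 bases (adjusted p = 0.282), and ZFP36L2, an RNA-binding protein gene whose product promotes messenger RNA decay, which rose at 601 bases from LINC01126.

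The members that rose came from 10 chromosomes, with 4 on chromosome 1 (which holds 15 members), 3 on chromosome 14 (7 members) and 3 on chromosome 17 (8 members). Chromosome 2 also held 15 members, of which 0 rose and 1 fell. Their median merged exon length was 3641 bases in 5 blocks, and none of the 21 single-block members was among them, against 2171 bases in 4 blocks for the members that did not pass. Exons of 4 of the 20 overlap another gene, as do those of 35 of the 105 that did not pass.

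The nuclear exosome trims and degrades many noncoding transcripts, and its cofactors bring it to capped RNAs. Of 25 tested genes for exosome subunits, targeting factors and cap-binding partners, 0 rose and 5 fell, where 8.82% of all genes rose and 6.59% fell. The list's median log2 fold change was -0.13 against 0.01 for all genes. SRRT, which links the cap-binding complex to RNA processing and decay, had 79.5, 87.6 and 106.6 CPM in the B35 libraries, against 143.3, 155.8 and 146.7 CPM in the control libraries. Its groups lay far apart, with a log2 fold change of -0.70 ± 0.11 (adjusted p = 0.00312, edgeR), and it passed with any 1 library left out. The exosome core subunits EXOSC8 and EXOSC9 fell by 0.47 and 0.39 on the log2 scale, the exosome cofactor MPHOSPH6 by 0.50 and the cap-binding subunit NCBP1 by 0.41, with adjusted p-values from 0.0167 to 0.0313. Without B35 replicate 1, 7 genes of the list fell (10.1% of all genes fell), and without control replicate 2, 3 fell (3.3% of all genes). Without any 1 of the other 4 libraries only SRRT fell, where 1.94% to 4.76% of all genes fell. These levels stand beside the rises of the LINC RNAs, and their part in them was not tested.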

How the data were processed

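Sequencing libraries (NEBNext Ultra RNA kit) came from 3 samples of A549 cells given B35 at 2 µM for 72 h and from 3 untreated samples, as the labels' protocols state. Per the submitters' processing notes, HISAT2 2.0.5 did the alignment and featureCounts 1.5.0-p3 the counting, with hg38. Each deposited file gives a raw count for every gene, and an FPKM value computed by the authors that was used here for levels per length. GENCODE 29 holds all 58735 gene IDs and supplied their biotypes, positions and exon overlaps.

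The test was edgeR 4.0.16's quasi-likelihood test, two-sided, run in R 4.3.3. Genes passed filterByExpr with at least 10 counts in enough libraries and at least 15 in all, totals were scaled by TMM, and p-values of the 14773 genes left were adjusted by Benjamini-Hochberg. An SE was taken as the absolute log2 fold change over the root of its F statistic. No libraries held identical values, replicates differed beyond counting error (chi-square over its degrees of freedom, 4.46 to 32.3), and each library counts as 1. Alternatives were DESeq2 1.42.0, limma-voom (limma 3.58.1), other scalings and filters, GC and length offsets, a replicate block, and each library left out. The fit was tested on simulated data.

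The members, the exosome and marker lists, the motifs and the rule for named genes were chosen with earlier results of these data known. The rule named every member that passed, with full values for the 10 largest rises, all falls and the most abundant, those nearest the count threshold, and up to 10 whose nearest coding gene passed. LINC01914, LINC00313 and LINC01126 were named after their values were seen. Promoter sequences are from RefSeq (GRCh38.p14). The result for 1 neighbouring gene is not reported here.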

Additional observations from a re-analysis of the deposited data

How the results depend on the processing

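LINC RNAs that rose numbered 20 in the analysis as reported and 15 to 26 in the 9 alternatives that keep all libraries (15 with a mean CPM of 1 or more, 19 in DESeq2, 26 with GC and length offsets). Those that fell numbered 3 as reported, 6 with GC and length offsets and 1 with upper-quartile scaling. Leaving out 1 library gave 6 to 20 rises and 0 to 3 falls. Of the 23 calls, 19 were kept in each of the 9 alternatives that tested them, where 3 of the 19 were not tested with a mean CPM of 1 or more required, and 6 in each of the 6 fits without 1 library. For the other lincRNAs, 28 rose and 11 fell as reported, 44 rose and 17 fell with GC and length offsets, and 8 to 38 rose and 4 to 14 fell without 1 library. Over all genes, 2276 passed as reported and 3889 with those offsets; the cause was not tested. In the exosome list, 0 rose and 5 fell as reported, 1 rose with those offsets, and 1 to 7 fell without 1 library. Pairs of LINC RNA and neighbour that both passed numbered 4 as reported and 0 to 7 without 1 library. The log2 fold change of LINC00294, which did not pass, was 0.07 as reported, -0.017 without control replicate 1 and up to 0.21 without 1 library. Over the 35 named members with a test, 435 of 519 values in the alternatives kept their direction and side of the threshold.

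A fit with the replicate number as a block called 21 rises and 3 falls. Over all genes tested, deviations of same-numbered libraries from their group means correlated at r of 0.16, 0.02 and -0.06. B35 replicate 3 correlated best with control replicate 2 (r of 0.25). The second component of the members put B35 replicate 1 and control replicate 1 on the same side. With 3 libraries a group, these values cannot tell whether the numbers mark a pairing. Depth limits the scarce RNAs: 4 of those that rose had under 10 counts in every control library.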

Other observations

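Below the summed count of 60, 6 LINC-named genes had 10 or more counts in all, with at most 1 in 1 of the groups. They were picked for this pattern and none was tested. LINC01451 had 6, 8 and 12 counts in the B35 libraries, against 0, 0 and 1 in the control libraries, and LINC00589 had 10, 5 and 9 counts in B35 cells, against 0 in every control library. LINC00629 and LINC01932 had 10 counts each over the B35 libraries, against 1 count each over the control libraries. In the other direction, LINC02367 had 1 count over the B35 libraries, against 15 over the control libraries, and LINC01488 had 0 over the B35 libraries, against 11 over the control libraries, 8 of them in control replicate 1. The 6 genes lie on 6 different chromosomes, and their counts are too few to say more than which libraries hold them.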
